A study of Mus musculus with 10 samples.

Results

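Chromatin accessibility was examined at 5 genes for surface proteins of innate lymphoid cells (ILCs), Kit, Thy1, Cd7, Cd83 and Cd93, by ATAC-seq, an assay that reads out open DNA through cutting and tagging by a transposase. An ATAC-seq peak was taken as belonging to 1 of the 5 genes where that gene's body was the nearest protein-coding gene body within 50 kb. This gave 36 of the 36251 peaks analysed: 10 for Kit, 5 for Thy1, 5 for Cd7, 10 for Cd83 and 6 for Cd93. The cells were ILCs from the lamina propria of the small intestine of C57BL/6 mice. The 4 groups each carried Id2creERT2, a tamoxifen-inducible Cre made in cells that express Id2, and the tdRFP reporter, and all mice were fed tamoxifen several weeks before the cells were isolated. RORgt-KO (n = 2) also carried Rorcf/f, RORgt-Tbet-KO (n = 2) carried Rorcf/f and Tbx21f/f, RORgt-RORa-KO (n = 3) carried Rorcf/f and Roraf/f, and Control (n = 3) carried none of the 3 floxed alleles. The series asked how accessibility differs between ILCs with and without these lineage-defining factors. The 10 libraries are biological replicates, each from 1 mouse or from 2 or 3 pooled mice. Sort antibodies, age, sex, batches and which exons were floxed are not stated by the sources at hand. Accessibility values are log2 scaled read counts as the authors deposited them, on which a difference of 1 is 2-fold; positions are on GRCm38 as deposited.

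Kit is the receptor tyrosine kinase for stem cell factor and marks a subset of group 3 ILCs, mast cells and haematopoietic progenitors. Thy1 is a small glycolipid-anchored glycoprotein used to recognise ILCs and T cells. Cd7 is an immunoglobulin-family receptor of early lymphocytes that binds SECTM1 proteins, Cd83 is a membrane glycoprotein that holds MHC class II and CD86 at the surface of dendritic cells and lymphocytes, and Cd93 is a C-type lectin-like receptor known from endothelium, myeloid cells and early B cells. RORgt, T-bet and RORa are the transcription factors whose genes were floxed: RORgt defines group 3 ILCs, T-bet directs type 1 programmes, and RORa is a nuclear receptor related to RORgt. Open chromatin marks where such factors can bind, and it measures neither transcript nor surface protein.

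Of the 5 genes, 1 (Kit) had an entry in the RefSeq promoter table used here (GRCm38.p6). Its 250 bases upstream of the gene start, chr5:75574737-75574986 on the plus strand, lie wholly inside the Kit peak at 75574680, the peak that covers the start of the gene, and are shown because that peak passed in none of the comparisons. CpG pairs are in capitals.
Kit promoter: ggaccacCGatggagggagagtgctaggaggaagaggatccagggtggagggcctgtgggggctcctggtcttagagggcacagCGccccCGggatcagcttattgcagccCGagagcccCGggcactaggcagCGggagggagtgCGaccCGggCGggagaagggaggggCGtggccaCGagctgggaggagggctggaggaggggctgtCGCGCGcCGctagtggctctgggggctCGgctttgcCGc
The stretch held 70.8% G and C, against a median of 52.4% over 32851 promoters of the table, and 17 CpG pairs, against a median of 6. Neither strand held AGGTCA (a ROR binding core, in 14.0% of those promoters), AGGTGNGA (a T-box binding core, 4.66%), TGTGGT (RUNX, 14.0%), TGANTCA (AP-1, 6.75%) or GATAAG (the site of GATA factors, 6.55%). These letters are not in this window, which says nothing of the factors.

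The libraries held 2271585 to 5047436 reads in peaks, and a library's median peak held 37 to 73 reads. Both RORgt-Tbet-KO libraries were deep (4580787 and 5047436 reads), as was RORgt-RORa-KO replicate 3 (4733829), against 2518233 to 3381784 in Control. The 36 peaks were 171 to 1963 bp long and held 4 to 827 reads per library, with a median of 48.5. No filter was set on low values, so all 36 were tested. The ILC markers fixed for checking the cells (Id2, Il7r, Il2rg, Thy1 and others) had a peak in 6 of 6 genes. As for the deletions, 1 of 2 Tbx21 peaks rose in RORgt-Tbet-KO and 3 of 14 Rora peaks rose in RORgt-RORa-KO, and the others did not pass; as the floxed exons are not known here, accessibility there does not check the labels.

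Peaks were tested with limma over all 36251 peaks in 1 fit of the 4 groups, and a peak counts as higher or lower where the Benjamini-Hochberg adjusted p was under 0.05. All adjusted p-values below come from that fit unless another setting is named, and SE stands for the moderated error of a difference. The other settings named are voom (a weighted limma fit of the reads recovered from the log2 values), library weights and no mean-variance trend. Further ones are log2 depth as a covariate, also with a replicate block (a term for replicate number), only the groups compared in the fit, and a library left out. Against Control, 4 of the 36 peaks passed in RORgt-KO, 2 higher and 2 lower, where 12.3% of all peaks passed (5.19% higher, 7.12% lower). In RORgt-Tbet-KO 11 passed, 9 higher and 2 lower, where 22.6% of all peaks passed (11.3% higher, 11.3% lower). In RORgt-RORa-KO 9 passed, 5 higher and 4 lower, where 31.2% of all peaks passed (15.1% higher, 16.1% lower). The share of the 36 was thus 11.1%, 30.6% and 25% in that order, near the whole table for RORgt-KO, above it for RORgt-Tbet-KO and below it for RORgt-RORa-KO, with no test of the list. Their median difference from Control was 0.07, 0.33 and 0.19 on the log2 scale, beside 0.02, 0.01 and 0.02 over all peaks. The moderated F test over the 4 groups passed for 13 of the 36 (36.1%), beside 30.7% of all peaks: 5 of Kit, 1 of Thy1, 2 of Cd7, 3 of Cd83 and 2 of Cd93.

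In all, 16 peaks passed against Control in at least 1 knockout group: 2 in all 3 groups, 4 in 2 groups and 10 in 1 group. None of the 16 was higher in one knockout group and lower in another among the calls. The other 20 peaks passed in none of the 6 comparisons and not in the F test. Position differed from the rest of the table: 6 of the 36 peaks (16.7%) lay at a gene end (within 1 kb), where 29.5% of all peaks lay, 8 (22.2%) lay inside a gene, against 39.5%, and 22 (61.1%) lay between genes, against 31.0%. The 2 sets are not alike, because the 36 lie within 50 kb of a gene by rule. Of the 36251 peaks, 32579 had a protein-coding gene within 50 kb, and the rest count as between genes. The locus maps place each of the 36 peaks against its gene.

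**Figure D1:**
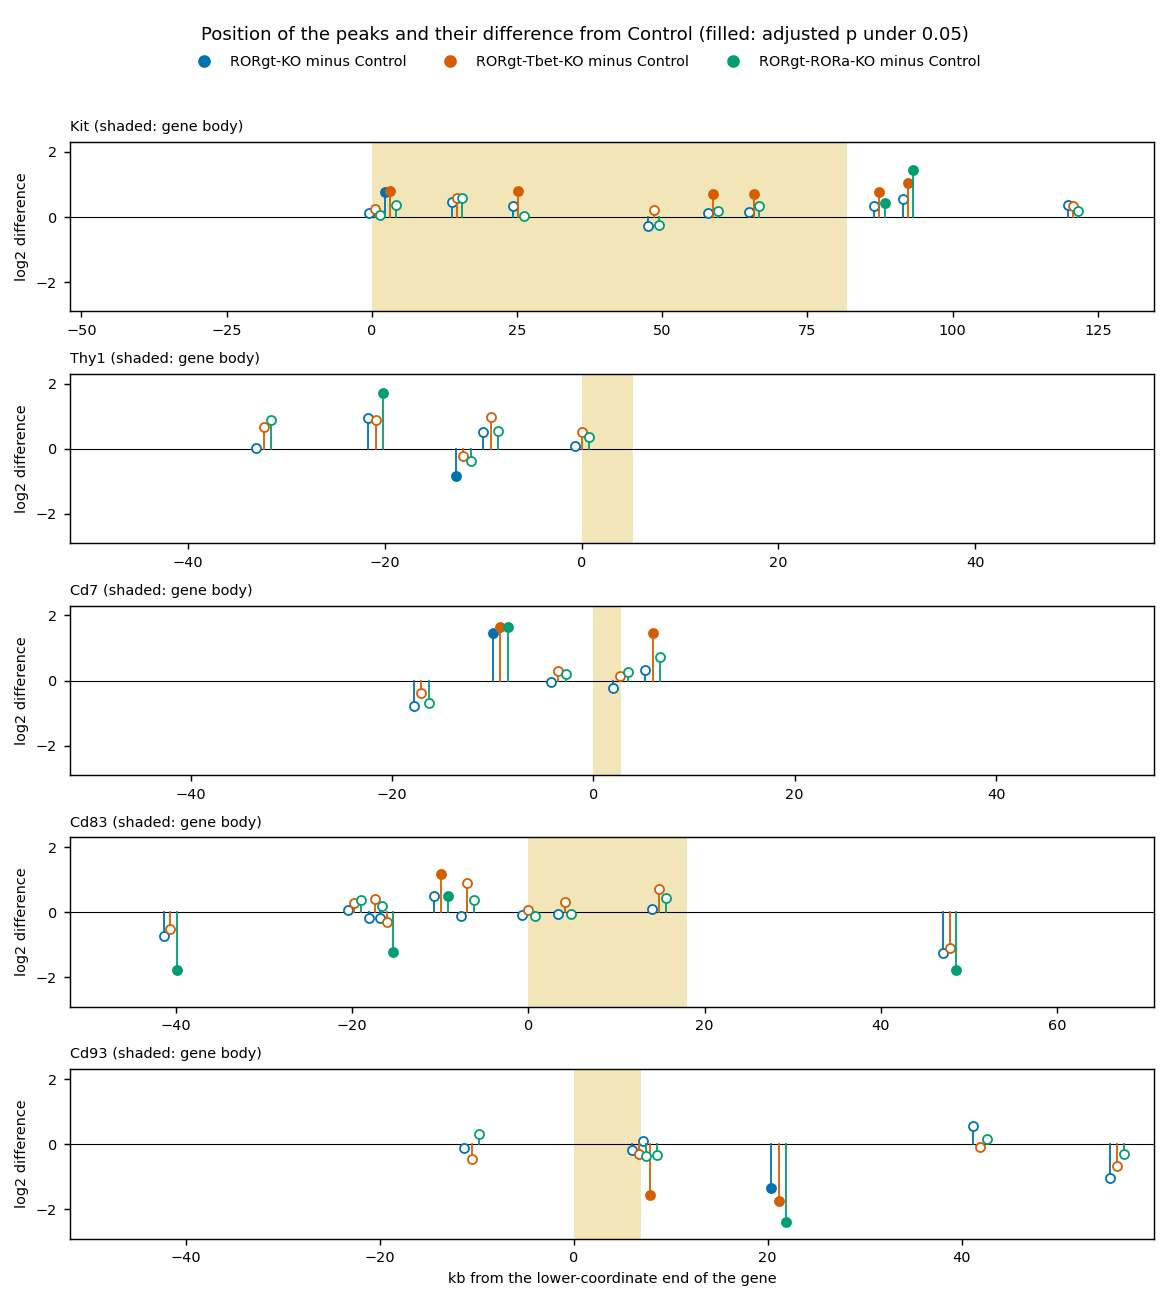
Position of the 36 peaks along each gene (x axis, kb from the lower-coordinate end of the gene body to the peak centre, with the 3 groups set slightly apart) and their log2 difference from Control (y axis), for RORgt-KO (blue), RORgt-Tbet-KO (orange) and RORgt-RORa-KO (green). The gene body is shaded, and filled points passed with a limma adjusted p under 0.05. Filled points of Kit all lie above 0 and those of Cd93 all lie below it, while Cd83 has both.

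**Figure D2:**
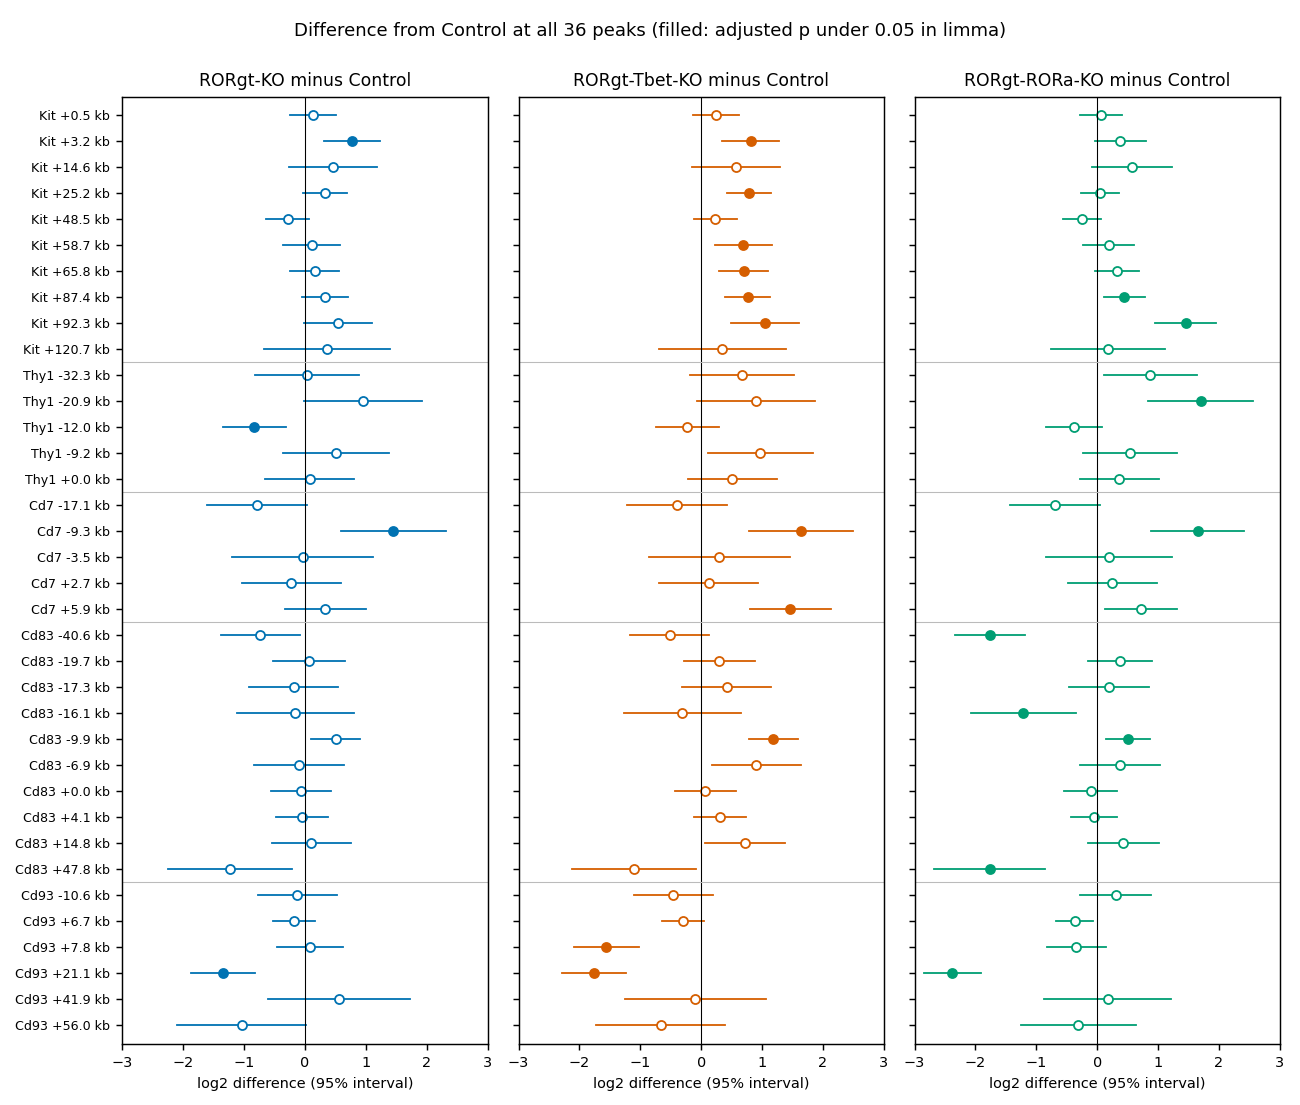
Log2 difference from Control (x axis) of every one of the 36 peaks, with its 95% interval, in RORgt-KO (left), RORgt-Tbet-KO (middle) and RORgt-RORa-KO (right). Rows are peaks, named by gene and by kb from the gene's lower-coordinate end. Filled points passed with a limma adjusted p under 0.05, 4, 11 and 9 in the 3 panels from left to right.

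Kit (gene ID 16590; chromosome 5, 75574987 to 75656722) was the gene with the most peaks higher in RORgt-Tbet-KO: 6 of its 10 peaks rose against Control, in a comparison where 11.3% of all peaks rose. The 10 differences in RORgt-Tbet-KO were all above 0, with a median of 0.70 on the log2 scale, beside 0.33 in RORgt-KO, where 1 peak rose, and 0.26 in RORgt-RORa-KO, where 2 rose. The rises lay inside the gene and beyond its end, and the peak at the gene start was not among them.

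At the gene start (75574680 to 75576265), the log2 value was 8.69 and 8.76 for RORgt-KO, 8.90 and 8.78 for RORgt-Tbet-KO, 8.53, 8.49 and 8.96 for RORgt-RORa-KO, and 8.69, 8.30 and 8.80 for Control. The groups overlapped there, and the differences from Control were 0.13, 0.24 and 0.06, the last with a 95% interval of -0.28 to 0.40. The Kit peak with the highest mean, inside the gene at 75622533 to 75624496, held 9.11 and 8.78 for RORgt-KO, 9.49 and 9.44 for RORgt-Tbet-KO, 8.96, 8.80 and 9.17 for RORgt-RORa-KO, and 9.32, 9.31 and 9.06 for Control. RORgt-Tbet-KO stood above the 3 Control libraries by 0.23 (95% interval -0.12 to 0.58), which did not pass.

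Nearest to the start among the peaks that rose was the one at 75578033 to 75578353, inside the gene. Its log2 value was 7.01 and 7.11 for RORgt-KO, 7.19 and 7.0 for RORgt-Tbet-KO, 6.44, 6.77 and 6.79 for RORgt-RORa-KO, and 6.10, 6.46 and 6.29 for Control. All RORgt-KO and RORgt-Tbet-KO libraries exceeded the Control libraries, whereas RORgt-RORa-KO overlapped them. The peak rose by 0.78 in RORgt-KO (SE 0.23, limma adjusted p = 0.0206) and by 0.81 in RORgt-Tbet-KO (SE 0.23, adjusted p = 0.00975), and differed by 0.38 in RORgt-RORa-KO (adjusted p = 0.157).

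Further into the gene, the peak at 75599684 to 75600743 held 8.31 and 8.45 for RORgt-KO, 8.88 and 8.79 for RORgt-Tbet-KO, 8.01, 7.99 and 8.29 for RORgt-RORa-KO, and 8.14, 7.99 and 8.01 for Control. RORgt-Tbet-KO lay above every other library. It rose by 0.79 against Control (SE 0.17, adjusted p = 0.00162), whereas RORgt-RORa-KO differed from Control by 0.05. At 75633261 to 75634186 the values were 7.32 and 6.72 for RORgt-KO, 7.57 and 7.63 for RORgt-Tbet-KO, 7.04, 6.84 and 7.42 for RORgt-RORa-KO, and 6.91, 6.69 and 7.12 for Control. At 75640423 to 75641179 they were 7.92 and 7.67 for RORgt-KO, 8.38 and 8.31 for RORgt-Tbet-KO, 7.81, 7.73 and 8.37 for RORgt-RORa-KO, and 7.62, 7.63 and 7.68 for Control. At both, the RORgt-Tbet-KO libraries were above Control, and replicate 3 was the highest of the RORgt-RORa-KO libraries. The RORgt-Tbet-KO differences were 0.69 (SE 0.23, limma adjusted p = 0.0278) and 0.70 (SE 0.20, limma adjusted p = 0.0103).

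Past the end of Kit, 2 peaks rose in both double knockouts. The peak 5135 bp beyond the gene body, at 75661857 to 75662919, held 8.87 and 8.67 for RORgt-KO, 9.23 and 9.19 for RORgt-Tbet-KO, 8.69, 8.81 and 9.18 for RORgt-RORa-KO, and 8.57, 8.59 and 8.18 for Control. Every knockout library exceeded the Control libraries, by 0.76 in RORgt-Tbet-KO (SE 0.18, adjusted p = 0.00317) and 0.44 in RORgt-RORa-KO (SE 0.16, adjusted p = 0.0384). The 290 bp peak 10451 bp beyond the gene, at 75667173 to 75667463, held 5.71 and 6.46 for RORgt-KO, 6.57 and 6.62 for RORgt-Tbet-KO, 7.10, 6.95 and 6.94 for RORgt-RORa-KO, and 6.02, 5.23 and 5.38 for Control. The 3 RORgt-RORa-KO libraries were the highest of the 10 there. It rose by 1.45 in RORgt-RORa-KO (2.74-fold, SE 0.25, adjusted p = 3.85e-05) and by 1.05 in RORgt-Tbet-KO (2.07-fold, SE 0.27, adjusted p = 0.00622), and differed by 0.54 in RORgt-KO (95% interval -0.02 to 1.11, overlapping Control). The remaining Kit peaks, at 75589427 and 75695584, did not pass and differed from Control by 0.18 to 0.57.

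Depth moved with the Kit result. Both RORgt-Tbet-KO libraries were among the 3 deepest. With log2 depth as a covariate the differences in RORgt-Tbet-KO at 75578033, 75633261, 75640423 and 75661857 were 0.80, 0.41, 0.37 and 0.44 (limma adjusted p = 0.0810, 0.395, 0.308 and 0.141), while the other 2 calls passed. With a replicate block as well as depth, the call at 75667173 was lost too (1.05, limma adjusted p = 0.0780), and only that at 75599684 passed. Single libraries also mattered: without RORgt-Tbet-KO replicate 1 the 6 peaks had limma adjusted p of 0.050 to 0.151 (differences 0.67 to 1.07), without replicate 2 4 of them had 0.0603 to 0.189, and without Control replicate 1 or 2 the peak at 75633261 had 0.0574 or 0.102. With no mean-variance trend the peaks at 75633261 and 75640423 had 0.10 and 0.0671. In RORgt-KO the call at 75578033 was lost without RORgt-KO replicate 1 (limma adjusted p = 0.115), RORgt-KO replicate 2 (0.170) or Control replicate 1 (0.0799). The RORgt-RORa-KO call at 75661857 was lost without RORgt-RORa-KO replicate 3 (0.30, limma adjusted p = 0.158) or Control replicate 3 (0.31, 0.155), and without either RORgt-KO or either RORgt-Tbet-KO library (0.0546 to 0.0568), and under 4 other settings (0.0568 to 0.137). The call at 75667173 in RORgt-RORa-KO passed under every alternative that kept the peak and without each library.

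Mast cells also carry Kit, and 3 of 6 mast cell marker genes had a peak (Fcer1a, Gata2 and Mcpt4 had none). Their summed scaled count was 1127 to 1182 in RORgt-KO, 1053 to 1068 in RORgt-Tbet-KO, 1129 to 1273 in RORgt-RORa-KO and 1479 to 1796 in Control. The knockout groups were thus below Control in this sum, where 1, 6 and 2 Kit peaks rose in the same order of groups. In each knockout group 4 of 11 marker peaks fell, all of Mitf, and in RORgt-RORa-KO 2 rose, 1 of Cpa3 and 1 of Hdc. In RORgt-KO and RORgt-Tbet-KO no peak of Cpa3 or Hdc passed. The 3 marker genes thus did not move alike, and the lower sum does not stand for each of them. That is 36.4%, 36.4% and 54.5% of the marker peaks passing, beside 12.3%, 22.6% and 31.2% of all peaks. The part of mast cells in the Kit result was not tested. In bulk chromatin of this kind, a change in the share of cells with an open site and a change in how open it is in each cell cannot be told apart.

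**Figure D3:**
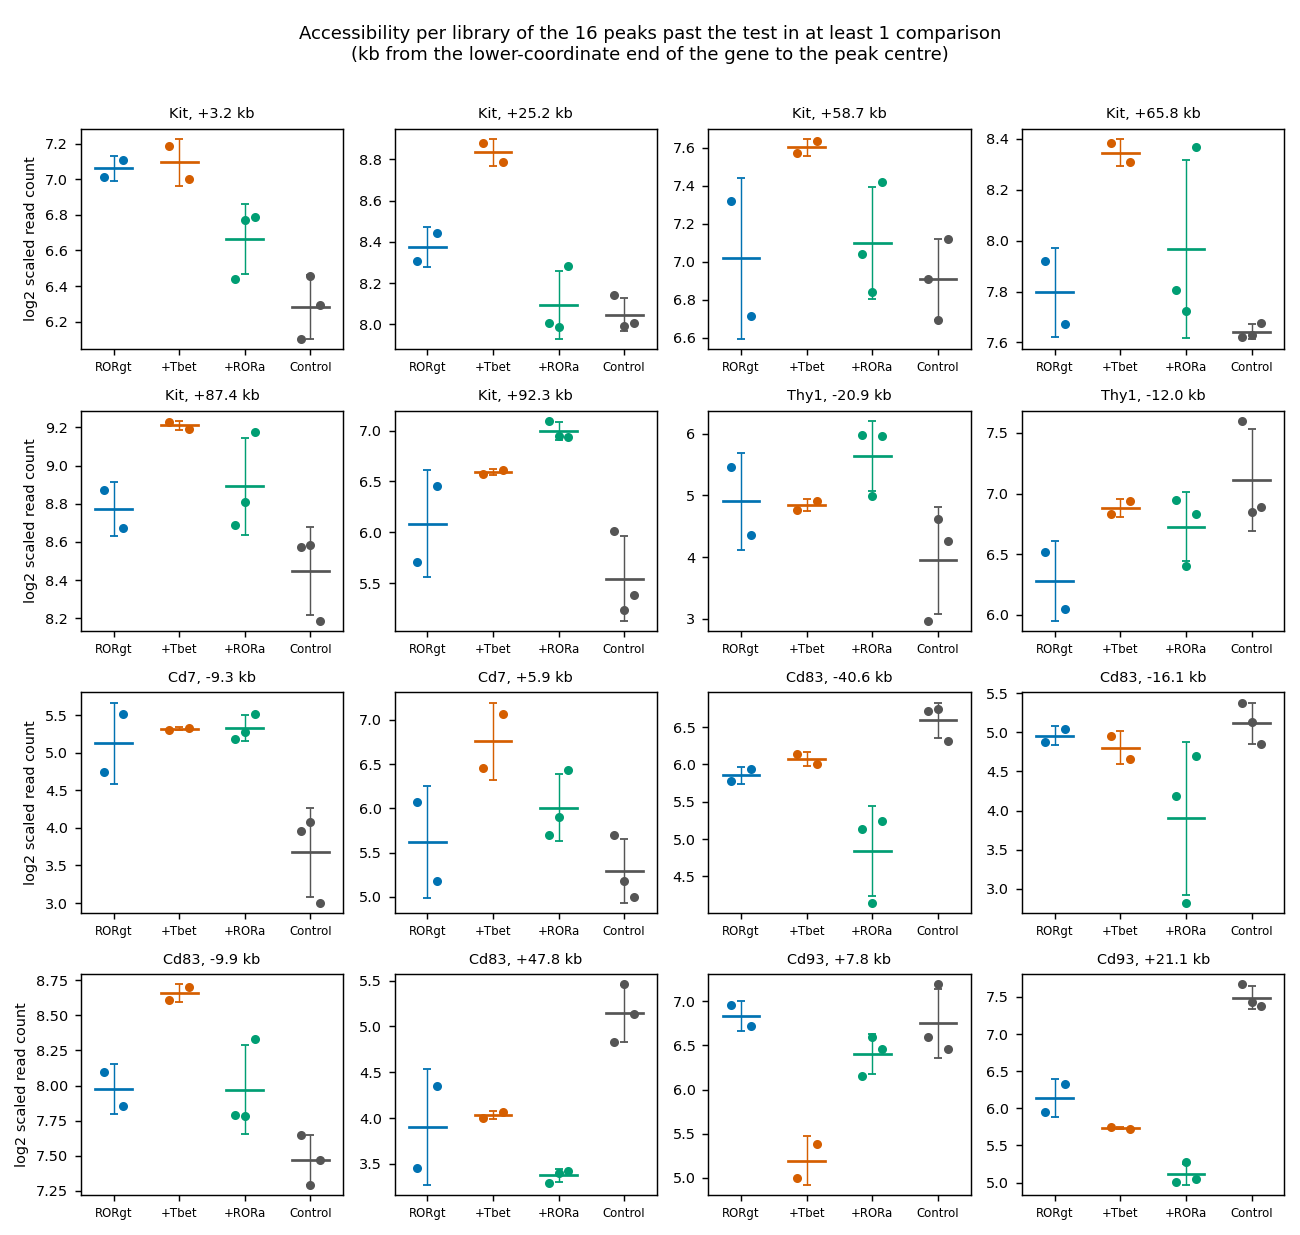
Log2 scaled read count (y axis, scale differing between panels) of the 16 peaks that passed in at least 1 comparison, in each library of RORgt-KO, RORgt-Tbet-KO (+Tbet), RORgt-RORa-KO (+RORa) and Control. Points are libraries, bars are group means and whiskers are 1 SD. The Cd93 peak 13847 bp above the gene shows all knockout libraries between 5.01 and 6.32, below the Control libraries at 7.38 to 7.67.

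Cd93 (gene ID 17064; chromosome 2, 148436651 to 148443535) held the peak with the widest difference from Control among the 36, at 148457382 to 148458164, 13847 bp above the higher-coordinate end of the gene. Its log2 value was 5.96 and 6.32 for RORgt-KO, 5.75 and 5.72 for RORgt-Tbet-KO, 5.01, 5.28 and 5.05 for RORgt-RORa-KO, and 7.67, 7.43 and 7.38 for Control. All knockout libraries were below all Control libraries, and RORgt-RORa-KO was below the others. It fell by 1.35 in RORgt-KO (2.55-fold, SE 0.26, limma adjusted p = 0.00062), fell by 1.76 in RORgt-Tbet-KO (3.38-fold, SE 0.26, adjusted p = 1.4e-05) and fell by 2.38 in RORgt-RORa-KO (5.2-fold, SE 0.23, adjusted p = 6.55e-09). In reads, the peak held 51 and 51 for RORgt-KO, 57 and 63 for RORgt-Tbet-KO, 23, 22 and 37 for RORgt-RORa-KO, and 157, 133 and 104 for Control. These 3 calls passed under every alternative that kept the peak and without each library.

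A second Cd93 peak separated RORgt-Tbet-KO from the other 3 groups. At 148444372 to 148444618, 837 bp above the gene, the log2 value was 6.96 and 6.72 for RORgt-KO, 5.0 and 5.39 for RORgt-Tbet-KO, 6.16, 6.60 and 6.46 for RORgt-RORa-KO, and 6.60, 7.19 and 6.46 for Control. The 2 RORgt-Tbet-KO libraries were the lowest of the 10, and the other knockout groups overlapped Control. It fell by 1.56 in RORgt-Tbet-KO against Control (2.94-fold, SE 0.26, adjusted p = 9.68e-05), while the differences were 0.09 in RORgt-KO (SE 0.26) and -0.35 in RORgt-RORa-KO (SE 0.24). The difference itself was tested between knockouts: RORgt-Tbet-KO was lower than RORgt-KO by a log2 difference of -1.64 (3.12-fold, SE 0.29, adjusted p = 0.00163) and lower than RORgt-RORa-KO by one of -1.21 (2.31-fold, SE 0.26, adjusted p = 0.00331). Without RORgt-KO replicate 1 or RORgt-Tbet-KO replicate 1 the comparison with RORgt-KO had a limma adjusted p of 0.0743 or 0.0792, and without RORgt-Tbet-KO replicate 1 that with RORgt-RORa-KO had 0.124 (difference -1.02). With no trend the comparison with RORgt-KO had 0.0696.

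The peak over the higher-coordinate end of Cd93, at 148442880 to 148443826, had the highest value per kb of the 36 (log2 per kb 9.28 over all libraries). Its log2 value was 9.21 and 9.25 for RORgt-KO, 9.07 and 9.14 for RORgt-Tbet-KO, 9.04, 9.02 and 9.04 for RORgt-RORa-KO, and 9.66, 9.31 and 9.26 for Control. Every knockout library was below every Control library, by small amounts that did not pass: -0.18, -0.30 and -0.37 (SE 0.17, 0.17 and 0.15; limma adjusted p = 0.572, 0.207 and 0.0571). The last passed with voom (limma adjusted p = 0.0419), library weights (0.0446) or the depth covariate (0.0239), and without Control replicate 3 (0.0266). The other 3 peaks, 10212 bp below and 34913 and 48996 bp above the gene, did not pass and differed from Control by -1.04 to 0.55.

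Early B cells and endothelium carry Cd93. The B cell marker genes Pax5, Ebf1 and Blk had peaks (Ms4a1 and Cd79a had none), with a summed scaled count of 680 to 696 in RORgt-KO, 721 to 846 in RORgt-Tbet-KO, 577 to 674 in RORgt-RORa-KO and 1059 to 1148 in Control. This sum was lower in all knockout groups, as was the Cd93 peak at 148457382, and 5, 5 and 6 of its 12 peaks fell in the same order of groups. That is 41.7%, 41.7% and 50% of them, where 7.12%, 11.3% and 16.1% of all peaks fell. Of 5 endothelial marker genes 2 had a peak (Cdh5, Kdr and Emcn had none). Their sum was higher in the knockout groups: 439 to 441 in RORgt-KO, 574 to 591 in RORgt-Tbet-KO, 453 to 610 in RORgt-RORa-KO and 358 to 418 in Control. Their 9 peaks moved both ways: 1 rose in RORgt-KO, 2 rose and 1 fell in RORgt-Tbet-KO, and 4 rose and 2 fell in RORgt-RORa-KO. Thus 11.1%, 33.3% and 66.7% of them passed, beside 12.3%, 22.6% and 31.2% of all peaks. The part of either cell type in the Cd93 result was not tested.

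Cd7 (gene ID 12516; chromosome 11, 121036747 to 121039478) had 1 peak that rose in all 3 knockout groups, at 121027279 to 121027713, 9034 bp below the lower-coordinate end of the gene. The log2 value there was 4.74 and 5.51 for RORgt-KO, 5.30 and 5.33 for RORgt-Tbet-KO, 5.19, 5.28 and 5.52 for RORgt-RORa-KO, and 3.96, 4.07 and 3.00 for Control. No knockout library overlapped Control, and the 3 knockout groups overlapped one another. It rose by 1.45 in RORgt-KO (2.73-fold, SE 0.42, limma adjusted p = 0.0204), by 1.64 in RORgt-Tbet-KO (3.12-fold, SE 0.42, adjusted p = 0.00527) and by 1.65 in RORgt-RORa-KO (3.14-fold, SE 0.38, adjusted p = 0.00115). The peak is shallow, with 22 and 29 reads for RORgt-KO, 42 and 48 for RORgt-Tbet-KO, 26, 22 and 51 for RORgt-RORa-KO, and 12, 13 and 5 for Control.

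On the other side of Cd7, the peak at 121042428 to 121042917, 2950 bp above the gene, held 6.07 and 5.17 for RORgt-KO, 6.45 and 7.07 for RORgt-Tbet-KO, 5.69, 5.91 and 6.43 for RORgt-RORa-KO, and 5.69, 5.18 and 5.0 for Control. RORgt-Tbet-KO was above Control in both libraries, with RORgt-KO overlapping Control. The rise in RORgt-Tbet-KO was 1.47 (2.77-fold, SE 0.32, adjusted p = 0.00155), and RORgt-RORa-KO differed by 0.72 (95% interval 0.12 to 1.31, limma adjusted p = 0.0596). The peak over the gene end, at 121039349 to 121039549, held 4.37 and 4.90 for RORgt-KO, 4.77 and 5.20 for RORgt-Tbet-KO, 5.44, 4.63 and 5.27 for RORgt-RORa-KO, and 5.13, 4.46 and 5.0 for Control, and the groups overlapped. A peak 16971 bp below the gene, at 121019543, was below Control in every knockout library, by a log2 difference of -0.79, -0.40 and -0.69, and did not pass. The peak at 121033184 overlapped between all groups.

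The RORgt-Tbet-KO calls of Cd7 did not hold under every setting. Both libraries of that group were deep, so depth and group overlapped. The depth covariate cut calls over all peaks in this comparison from 22.6% to 9.77%. With the depth covariate the differences at 121027279 and 121042428 were 1.39 and 0.91 (limma adjusted p = 0.101 and 0.142). Without RORgt-Tbet-KO replicate 2 they were 1.63 and 1.16 (limma adjusted p of 0.0695 to 0.0883), and without replicate 1 the peak at 121027279 had an adjusted p of 0.0670 in limma. In RORgt-KO that peak was lost without RORgt-KO replicate 2 (1.07, limma adjusted p = 0.307) or Control replicate 3 (1.11, 0.0626), with voom (0.0577) and with only the groups compared (0.0772), whereas the RORgt-RORa-KO call passed under every alternative that kept the peak and without each library.

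Thy1 (gene ID 21838; chromosome 9, 44043384 to 44048579) had 5 peaks, 4 of them between 9108 and 32129 bp below the lower-coordinate end of the gene, and 2 passed, in opposite directions and in different groups. At 44022216 to 44022689, 20695 bp below the gene, the log2 value was 5.45 and 4.35 for RORgt-KO, 4.77 and 4.91 for RORgt-Tbet-KO, 5.98, 4.99 and 5.97 for RORgt-RORa-KO, and 2.96, 4.62 and 4.26 for Control. RORgt-RORa-KO and RORgt-Tbet-KO lay above Control, and RORgt-KO overlapped it. The peak rose by 1.70 in RORgt-RORa-KO (3.25-fold, SE 0.42, limma adjusted p = 0.00262), and the differences of 0.96 and 0.90 in RORgt-KO and RORgt-Tbet-KO (SE 0.47 each) did not pass. Its reads ranged from 6 in Control replicate 1 to 70 in RORgt-RORa-KO replicate 3, and the call passed under every alternative that kept the peak and without each library.

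At 44031126 to 44031628, 11756 bp below the gene, Thy1 was lower in RORgt-KO. The log2 value was 6.51 and 6.04 for RORgt-KO, 6.83 and 6.93 for RORgt-Tbet-KO, 6.94, 6.40 and 6.83 for RORgt-RORa-KO, and 7.60, 6.85 and 6.89 for Control. Both RORgt-KO libraries were below Control, and the double knockouts overlapped it. It fell by 0.83 in RORgt-KO (SE 0.25, adjusted p = 0.0269), and the call was lost without RORgt-KO replicate 1 (-1.07, limma adjusted p = 0.0534), RORgt-KO replicate 2 (-0.60, 0.335) or Control replicate 1 (-0.59, 0.180), with voom (0.0502) and with no trend (0.113). The peak over the gene end, at 44043258 to 44043579, held 4.93 and 5.65 for RORgt-KO, 5.61 and 5.83 for RORgt-Tbet-KO, 5.24, 5.99 and 5.52 for RORgt-RORa-KO, and 5.07, 4.76 and 5.81 for Control, with all groups overlapping. The peaks at 44010934 and 44034004 did not pass, with differences from Control of 0.03 to 0.97.

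T cells share Thy1 and Cd7 with ILCs. Of 6 T cell marker genes 5 had a peak (Cd3g had none), and their summed scaled count was 457 to 501 in RORgt-KO, 532 to 603 in RORgt-Tbet-KO, 682 to 788 in RORgt-RORa-KO and 401 to 475 in Control. Of their 9 peaks 1 rose and 1 fell in RORgt-KO, 3 rose and 2 fell in RORgt-Tbet-KO, and 5 rose and 2 fell in RORgt-RORa-KO. Thus 22.2%, 55.6% and 77.8% of them passed, beside 12.3%, 22.6% and 31.2% of all peaks. The markers thus moved both ways: the Cd3e peak rose by 1.06, 1.85 and 2.07 in those groups (SE 0.29, 0.29 and 0.26), while a Cd5 peak fell, by log2 differences of -2.39, -2.95 and -2.07 (SE 0.63, 0.63 and 0.56). The sum was highest in RORgt-RORa-KO, where the Thy1 peak at 44022216 rose. Their part in the Thy1 and Cd7 results was not tested.

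Cd83 (gene ID 12522; chromosome 13, 43785112 to 43803133) had peaks that moved in both directions: 2 calls were of a rise at 1 peak below the gene, and 3 peaks fell, all in RORgt-RORa-KO. The peak at 43774801 to 43775635, 9477 bp below the gene, held 8.10 and 7.85 for RORgt-KO, 8.61 and 8.70 for RORgt-Tbet-KO, 7.79, 7.78 and 8.33 for RORgt-RORa-KO, and 7.65, 7.29 and 7.47 for Control. All knockout libraries were above Control, with RORgt-Tbet-KO above all others. It rose by 1.19 in RORgt-Tbet-KO (2.28-fold, SE 0.20, limma adjusted p = 7.65e-05) and by 0.50 in RORgt-RORa-KO (SE 0.18, adjusted p = 0.0311), and differed by 0.50 in RORgt-KO (95% interval 0.10 to 0.91, limma adjusted p = 0.0973). The RORgt-RORa-KO call was lost without RORgt-RORa-KO replicate 3 (0.32, limma adjusted p = 0.181) or Control replicate 2 (0.41, 0.132), with no trend (0.11) and with only the groups compared (0.0692). The RORgt-Tbet-KO call passed under every alternative that kept the peak and without each library.

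The distal peak at 43744290 to 43744747, 40365 bp below Cd83, held 5.78 and 5.94 for RORgt-KO, 6.14 and 6.01 for RORgt-Tbet-KO, 5.13, 4.14 and 5.24 for RORgt-RORa-KO, and 6.71, 6.75 and 6.32 for Control. Every knockout library was below Control, and the 3 RORgt-RORa-KO libraries were the lowest of all. It fell by 1.76 in RORgt-RORa-KO (3.38-fold, SE 0.28, adjusted p = 1.92e-05), whereas RORgt-KO differed by -0.74 and RORgt-Tbet-KO by -0.52 (SE 0.32 each), which did not pass. At 43832758 to 43833052, 29625 bp above the gene, the value was 3.45 and 4.35 for RORgt-KO, 4.00 and 4.07 for RORgt-Tbet-KO, 3.29, 3.40 and 3.43 for RORgt-RORa-KO, and 4.83, 5.46 and 5.14 for Control. Again no knockout library reached Control. This peak fell by 1.77 in RORgt-RORa-KO (3.41-fold, SE 0.45, adjusted p = 0.00293), and RORgt-KO (difference -1.24) and RORgt-Tbet-KO (difference -1.11, SE 0.50 each) did not pass. Both RORgt-RORa-KO calls passed under every alternative that kept the peak and without each library.

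The shortest of the 36 peaks, 171 bp at 43768967 to 43769138, held 4.87 and 5.04 for RORgt-KO, 4.96 and 4.65 for RORgt-Tbet-KO, 4.19, 2.82 and 4.70 for RORgt-RORa-KO, and 5.37, 5.13 and 4.85 for Control. Only RORgt-RORa-KO was wholly below Control. It fell by 1.21 there (SE 0.42, adjusted p = 0.0274), a call lost without RORgt-RORa-KO replicate 2 (-0.67, limma adjusted p = 0.182), which held 4 reads, and without Control replicate 1 (-1.09, 0.0948) or 2 (-1.21, 0.0673), and under 3 other settings (0.0546 to 0.0844). The gene-end peak at 43784920 to 43785332 held 6.26 and 6.32 for RORgt-KO, 6.42 and 6.45 for RORgt-Tbet-KO, 6.13, 6.14 and 6.49 for RORgt-RORa-KO, and 6.30, 6.35 and 6.43 for Control. Its differences from Control were -0.07, 0.07 and -0.11, with 95% intervals within -0.56 to 0.57. The other 5 Cd83 peaks did not pass, with differences from Control of -0.18 to 0.91. The highest of these was at 43778090 in RORgt-Tbet-KO (limma adjusted p = 0.0681), which passed with voom (0.0304) or library weights (0.0202), among others.

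Cd83 is also known from dendritic cells and B cells. Of 8 dendritic and myeloid marker genes 5 had a peak (Csf1r, Lyz2 and Cd68 had none), with a summed scaled count of 970 to 1029 in RORgt-KO, 1018 to 1115 in RORgt-Tbet-KO, 878 to 1056 in RORgt-RORa-KO and 1053 to 1086 in Control. RORgt-KO was wholly below Control in this sum, and the double knockouts overlapped Control. The B cell sums given with Cd93 were lower in all knockout groups. The part of these cells in the Cd83 result was not tested.

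Across the 5 genes, 5 of the 6 peaks within 1 kb of a gene end passed in no comparison, and the Cd93 peak at 148444372 was the other. Over all peaks at gene ends, 3.06% passed in RORgt-KO, 12.2% in RORgt-Tbet-KO and 14.8% in RORgt-RORa-KO against Control, fewer than elsewhere in the table. Of the 22 peaks between genes, 3 passed in RORgt-KO, 6 in RORgt-Tbet-KO and 9 in RORgt-RORa-KO (13.6%, 27.3% and 40.9%), close to all peaks between genes (17.0%, 27.5% and 38.5%). Of the 8 inside a gene, 1 passed for RORgt-KO and 4 for RORgt-Tbet-KO, all of Kit, and none for RORgt-RORa-KO, beside 15.6%, 26.5% and 37.8% of all peaks inside genes. Per kb of peak, averaged over all libraries, the gene-end peaks ranked Cd93 (log2 per kb 9.28), Kit (8.02), Cd83 (7.61), Cd7 (7.24) and Thy1 (7.08).

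Between knockouts, few of the 36 peaks passed. RORgt-Tbet-KO differed from RORgt-KO at 1 peak, lower (all peaks 1.14%, 0.965% lower), the Cd93 peak at 148444372. RORgt-RORa-KO differed from RORgt-KO at 1 peak, lower (all peaks 1.47%, 1.14% lower): the Cd93 peak at 148457382, by a log2 difference of -1.03 (2.04-fold, SE 0.26, limma adjusted p = 0.0347). That call was lost without RORgt-KO replicate 2 (-0.84, limma adjusted p = 0.641), without RORgt-KO replicate 1 (-1.21, 0.0903), without RORgt-RORa-KO replicate 1 (-0.98, 0.0931) or 3 (-1.0, 0.0689), and without either RORgt-Tbet-KO library (0.0594 or 0.0601), and under 3 other settings that fit no replicate block (0.0996 to 0.145).

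RORgt-Tbet-KO differed from RORgt-RORa-KO at 4 peaks, 3 higher and 1 lower (all peaks 7.54%, 3.72% higher and 3.82% lower). The lower one was the Cd93 peak at 148444372. The higher ones were the Kit peak at 75599684 (0.74, SE 0.17, limma adjusted p = 0.00662), the Cd83 peak at 43744290 (1.24, 2.37-fold, SE 0.32, limma adjusted p = 0.0119) and the Cd83 peak at 43774801 (0.69, SE 0.20, limma adjusted p = 0.0278). With the depth covariate those 3 had limma adjusted p of 0.105, 0.419 and 0.556 (0.61, 0.77 and 0.38). With no trend they had 0.0639, 0.0674 and 0.152. Without RORgt-Tbet-KO replicate 1 they had 0.150, 0.169 and 0.180, and without replicate 2 0.0785, 0.102 and 0.280. Without RORgt-RORa-KO replicate 2 both Cd83 peaks were lost (limma adjusted p of 0.0534 to 0.0782), and without RORgt-RORa-KO replicate 1 the one at 43774801 (0.127). For the Kit peaks at 75667173 and 75578033, which passed against Control in different groups, the differences between knockouts did not pass: RORgt-RORa-KO minus RORgt-KO was 0.91 (95% interval 0.35 to 1.47, limma adjusted p = 0.103) and -0.40 (-0.86 to 0.07, limma adjusted p = 0.498).

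**Figure D4:**
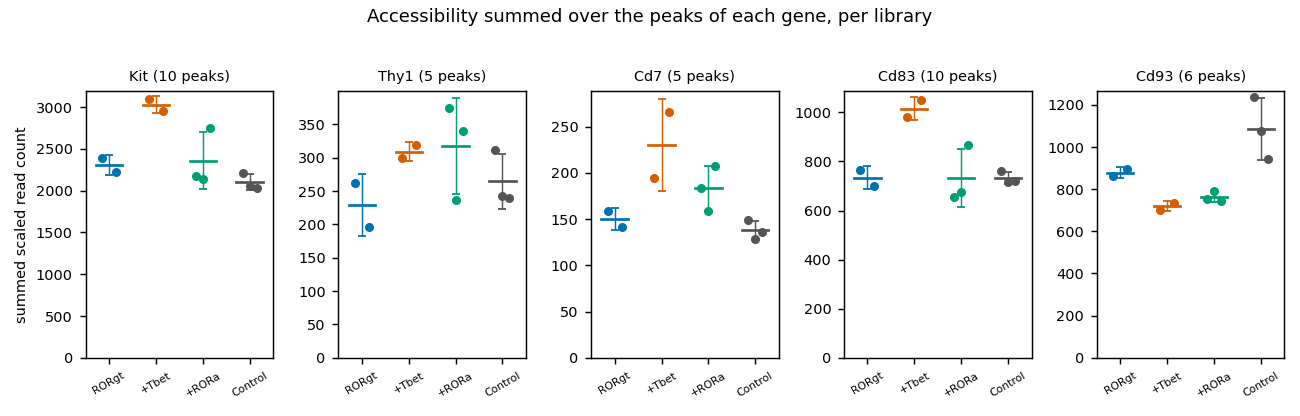
Scaled read count summed over the peaks of each gene (y axis, from 0) in each library of RORgt-KO, RORgt-Tbet-KO (+Tbet), RORgt-RORa-KO (+RORa) and Control. Points are libraries, bars are group means and whiskers are 1 SD. RORgt-Tbet-KO stands above the other groups for Kit and Cd83, and all knockout libraries are below the Control libraries for Cd93.

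Summed over its 10 peaks, the Kit locus held a scaled read count of 2394 and 2223 for RORgt-KO, 3101 and 2956 for RORgt-Tbet-KO, 2179, 2141 and 2751 for RORgt-RORa-KO, and 2213, 2059 and 2033 for Control. RORgt-Tbet-KO was above every other library, and RORgt-RORa-KO replicate 3, one of the 3 deepest libraries, was the nearest to it. Other sums were also highest in RORgt-Tbet-KO: the 6 ILC marker genes held 4149 to 4408 there, against 3459 to 3525 in RORgt-KO, 3368 to 4080 in RORgt-RORa-KO and 3446 to 4036 in Control. The KIT signalling genes held 7054 to 7131 in RORgt-Tbet-KO, 5565 to 6199 in RORgt-KO, 5300.2 to 6998 in RORgt-RORa-KO and 5500.45 to 5783 in Control. Epithelial markers (3 of 4 genes, Vil1 had no peak) held 684 to 755 in RORgt-Tbet-KO, 586 to 605 in RORgt-KO, 627 to 651 in RORgt-RORa-KO and 482 to 523 in Control. Stromal markers (2 of 3 genes, Col1a1 had no peak) held 731 to 768 in RORgt-Tbet-KO, 540 to 583 in RORgt-KO, 520 to 566 in RORgt-RORa-KO and 612 to 683 in Control. Their part, and that of depth, in the Kit and Cd83 sums was not tested. In order of the Kit sums, the means were 3028 ± 103 in RORgt-Tbet-KO, 2357 ± 342 in RORgt-RORa-KO, 2309 ± 121 in RORgt-KO and 2102 ± 97.3 in Control (SD, n = 2, 3, 2 and 3). RORgt-RORa-KO overlapped RORgt-KO and Control, and the lower RORgt-KO library (2223) was just above the highest Control library (2213). Cd83 had the same leading group, with 1015 ± 47.8 in RORgt-Tbet-KO and then 733 ± 46.7 in RORgt-KO, 733 ± 117 in RORgt-RORa-KO and 733 ± 24.2 in Control (SD, n = 2, 2, 3 and 3). The Cd83 sums of RORgt-RORa-KO (656, 675 and 867) and Control (761, 718 and 721) were equal by mean only. In RORgt-RORa-KO, replicates 1 and 2 were below every Control library, and replicate 3, 1 of the 3 deepest libraries, was above them all. These sums stand beside 3 peaks that fell and 1 that rose in RORgt-RORa-KO.

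For Cd93 the order ran the other way: 719 ± 23.2 in RORgt-Tbet-KO, 763 ± 23.6 in RORgt-RORa-KO, 879 ± 24.9 in RORgt-KO and 1085 ± 148 in Control (SD, n = 2, 3, 2 and 3). Every knockout library was below the lowest Control library, at 942, and the double knockouts were both below RORgt-KO. Cd7 summed to 230 ± 50.1 in RORgt-Tbet-KO, 183 ± 24.2 in RORgt-RORa-KO, 150 ± 12.1 in RORgt-KO and 138 ± 10.5 in Control (SD, n = 2, 3, 2 and 3). Neighbours in this order overlapped, except that the lowest RORgt-RORa-KO library (159) was just above the highest RORgt-KO library (158). Thy1 summed to 317 ± 72.1 in RORgt-RORa-KO, 309 ± 14.1 in RORgt-Tbet-KO, 229 ± 46.4 in RORgt-KO and 265 ± 41.1 in Control (SD, n = 3, 2, 2 and 3), and Control overlapped each knockout group. By mean, Control lay between RORgt-Tbet-KO and RORgt-KO, and the RORgt-Tbet-KO libraries (299 and 319) were above both RORgt-KO libraries (262 and 196). These sums were not tested.

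For each gene, the peak with the smallest F test p was compared with 31604 to 31609 peaks of other genes by Pearson's r over the 10 libraries. This is a description that includes the shared group differences and depth. Peaks of predicted genes and peaks with no gene within 50 kb were left out of it. The 3 genes with the highest r among the rest are named, with 1 peak each. The Kit peak at 75667173 was most like peaks of Mlh3 (r = 0.98), Atp1b1 (0.97) and Gimap4 (0.96). The Thy1 peak at 44022216 was most like peaks of Lasp1 (0.99), Ipmk (0.97) and Traf3 (0.96). The Cd7 peak at 121027279 was most like peaks of Rere (0.99), Atp11b (0.98) and Gpr55 (0.97). The Cd83 peak at 43744290 was most like peaks of Dpysl2 (0.99), Smtn (0.98) and Ezr (0.98). The Cd93 peak at 148457382 was most like peaks of Rfxap (0.99), Fzd7 (0.99) and Ccdc150 (0.99).

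Partners and signalling genes of the 5 proteins were described by counts. Around KIT signalling (9 of 9 genes, 47 peaks), 2 peaks rose and 1 fell in RORgt-KO, 14 rose and 2 fell in RORgt-Tbet-KO, and 12 rose and 4 fell in RORgt-RORa-KO, with median differences of 0.16, 0.38 and 0.23. In all 6.38%, 34.0% and 34.0% of these peaks passed in that order, beside 12.3%, 22.6% and 31.2% of all peaks. The 1 peak of Kitl, the KIT ligand, rose by 1.34 in RORgt-Tbet-KO (SE 0.45) and by 1.09 in RORgt-RORa-KO (SE 0.40), and a peak in the adaptor gene Grb2 rose by 1.16 in RORgt-KO, by 1.78 in RORgt-Tbet-KO and by 1.54 in RORgt-RORa-KO (SE 0.25, 0.25 and 0.23). A peak in the adaptor gene Gab2 fell in the same groups, by log2 differences of -1.96, -1.55 and -1.52 (SE 0.35, 0.35 and 0.32). The integrin genes of THY1 partners (4 genes, 22 peaks) had 1 peak higher in RORgt-KO, 5 in RORgt-Tbet-KO and 7 in RORgt-RORa-KO, and 0 lower. These were 4.55%, 22.7% and 31.8% of the peaks, where 5.19%, 11.3% and 15.1% of all peaks rose. The share that rose was thus near that of all peaks in RORgt-KO and above it in the double knockouts.

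Of the SECTM1 ligand genes of CD7 (2 genes, 5 peaks), 1 Sectm1a peak rose in both double knockouts, by 1.69 in RORgt-Tbet-KO (SE 0.34) and by 1.31 in RORgt-RORa-KO (SE 0.31). Of the genes displayed with CD83 (2 of 3 with a peak, 7 peaks), 1 peak fell in RORgt-KO, 3 in RORgt-Tbet-KO and 2 in RORgt-RORa-KO, all of Cd86, with log2 differences of -1.18, -1.19 and -1.46 at its peak at 36587743 on chromosome 16 (SE 0.24, 0.24 and 0.21). Of the ligands and relatives of CD93 (2 of 5 genes, 8 peaks), 1 peak rose and 3 fell in RORgt-RORa-KO, all of Igfbp7. Other ILC surface genes (22 of 24 genes, 103 peaks) had 10 peaks higher and 7 lower in RORgt-KO, 26 higher and 4 lower in RORgt-Tbet-KO, and 28 higher and 8 lower in RORgt-RORa-KO, with medians of 0.07, 0.24 and 0.26. Of these peaks 16.5%, 29.1% and 35.0% passed, a few percentage points above the shares over all peaks. The CD7, CD83 and CD93 lists hold too few peaks for a share to be read against those of all peaks, and no list was tested.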

How the data were processed

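Per the submitters' processing notes, the authors used Trim Galore 0.62, Bowtie2 2.3.5.1, SAMtools, MACS2 and GRCm38. They deposited 1 table of log2 values, each a read count of a peak after scaling by library. How the scaling total was chosen is not stated by the sources at hand. With the log removed, every value was a whole multiple of its library's lowest unit (100% within a tolerance of 0.01, empty peaks at 0.9 of a unit), which gave reads per peak. The 11 peaks on Y were left out of 36262. Nearest gene bodies came from the RefSeq gene table of GRCm38.p6, used here without exons. The test was limma 3.58.1 (R 4.3.3), with a mean-variance trend, no pseudocount and no filter, on all 4 groups (6 residual and 22.5 prior degrees of freedom, median SE 0.27 to 0.33), checked on simulated data and adjusted over 36251 peaks at 0.05. Sums and figures used Python 3.11.15 and matplotlib 3.10.9. Members, gene lists, markers and the rule for named peaks (those that passed, the gene-end peak and the highest peak of each gene) were chosen with earlier results of these data known. Alternatives covered scaling, trend, low peaks, a pseudocount, library weights, a replicate block, depth, the groups fitted, distance and each library left out. The limma voom fit on recovered reads was chosen after seeing the data. A gene among the B cell markers is not reported here.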

Additional observations from a re-analysis of the deposited data

How the results depend on the processing

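Of 625 checks of the 30 calls under other settings, 531 kept their direction and passed, 94 kept their direction and did not pass (52 of them with 1 library left out), and 0 reversed. Against Control, RORgt-KO (4 peaks) had 2 with limma voom on the recovered reads and 1 with peaks within 5 kb; RORgt-Tbet-KO (11) had 5 with the depth covariate, 5 with the replicate block and depth, and 6 within 5 kb; RORgt-RORa-KO (9) had 0 within 5 kb, which keeps 16 of the 36 peaks (2 at an unadjusted limma p under 0.05). RORgt-Tbet-KO against RORgt-KO (1) had 0 with no trend (5 at an unadjusted limma p under 0.05), 8 with library weights and 9 with only the groups compared, where calls over all peaks were 0.262%, 8.68% and 9.22%, beside 1.14% as reported. RORgt-RORa-KO against RORgt-KO (1) had 0 with voom, with no trend, with the replicate block and depth, with only the groups compared and within 5 kb, and 2 with library weights; at an unadjusted limma p under 0.05 the counts of 0 were 3, 4, 7, 4 and 0 in that order. RORgt-Tbet-KO against RORgt-RORa-KO (4) had 1 with no trend, 9 with weights, 1 with the depth covariate, 2 with the replicate block and depth (4.15%, 17.3%, 2.93% and 2.63% of all peaks, beside 7.54%), and 2 within 5 kb; the F test (13) had 5 within 5 kb. With 1 library left out, the counts ran from 1 to 4 in RORgt-KO, 4 to 12 in RORgt-Tbet-KO and 7 to 10 in RORgt-RORa-KO against Control, 0 to 1 and 0 to 1 in the comparisons with RORgt-KO, 0 to 6 between the double knockouts and 9 to 16 in the F test. Where such a count was 0, 3 to 9 peaks had an unadjusted limma p under 0.05. Leaving out a RORgt-KO or RORgt-Tbet-KO library left 1 library in that group, assumed to vary like the other groups. Calls over all peaks in that group's comparisons then fell as well, so the lower counts are not particular to the 36 peaks. Over all peaks, RORgt-Tbet-KO against Control had 3541 calls (9.77%) with the depth covariate and 12468 (34.4%) with library weights, beside 8189 (22.6%). Replicate numbers showed no clear pairing: deviations of same-numbered libraries correlated at -0.12 to 0.14, with 1 of 13 pairs over 0.1. In all, 3 of 10 libraries correlated best with their own number. In groups of 2 the deviations from the group mean mirror each other, so this check cannot exclude a pairing. The replicate block gave 5, 12 and 11 against Control and 1, 1 and 5 between knockouts, and 16 in the F test. Leaving out low peaks kept 29 of the 36. The planned edgeR test and TMM scaling were not run, because the deposited unit is log2. Causes of these changes were not tested. Low read numbers, down to 4 in a library, limit the smaller peaks, and groups of 2 or 3 libraries limit all comparisons.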
